A study of Callithrix jacchus with 4 samples.

Results

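The genes described here are 10 genes of the blood-brain barrier endothelium, CLDN5, FLT1, PECAM1, VWF, CDH5, ESAM, SLC2A1, MFSD2A, ABCB1 and TEK, taken by symbol from a table of 35108 genes measured by RNA sequencing in frontal cortex of the common marmoset (Callithrix jacchus). All 10 symbols were in the table, and all 10 passed the filter on low counts that left 16385 genes for testing, with at least 30 counts in each library. The series held 4 libraries from adult animals: WT1 and WT2, labelled wild type, and TG1 and TG2, labelled as carrying an APP transgene, which per the series title is a mutant amyloid precursor protein gene under the human EF1α promoter, a promoter used for expression in most cell types. The transgenic animals are labelled female and the wild-type animals have no sex given. Whether the libraries of a genotype came from separate animals is not stated in the labels. WT1 and WT2 did, by their KDM5D counts given below. P-values measure the spread between these libraries, which for TG1 and TG2 may be technical.

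Brain capillaries are lined by endothelial cells that are sealed to each other and move nutrients through named carriers instead of pores. Tight and adherens junction proteins close the gaps between cells, VEGF and angiopoietin receptors set growth and quiescence of the vessel, and solute carriers and efflux pumps decide what crosses. Astrocyte endfeet and pericytes wrap these vessels, and Wnt ligands from the surrounding tissue keep the barrier programme on. Because cortex is mostly neurons and glia, endothelial transcripts are a small part of the RNA measured here, and in bulk tissue fewer endothelial cells cannot be told apart from less RNA per cell.

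Total counts were 12657323 and 13569838 in WT1 and WT2 and 13462167 and 18932180 in TG1 and TG2, so that 3 counts corresponded to 0.17 to 0.23 CPM (counts scaled to TMM-adjusted library size). APP, the gene that the transgene carries, was at 1822 and 2182 CPM in WT1 and WT2 and 2143 and 2748 CPM in TG1 and TG2 (adjusted p = 0.80), and whether reads of the transgene were counted there is not stated. The Y-linked gene KDM5D had 2 counts in WT1, 243 in WT2 and 0 in TG1 and TG2, so WT1 and WT2 came from different animals and sex is in part confounded with genotype. TG2 stood apart: 8.31% of all genes tested lay at least 1 log2 unit below the wild-type mean there, against 1.42% in TG1. Each result is therefore given by library and, where it matters, without that library.

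Barrier genes were lower in transgenic cortex for 9 of 10 members in the edgeR fit, with CDH5 the exception, but no member's difference passed the test. The median log2 fold change over the 10 genes was -0.69, against a median of 0.00 over all genes tested, of which 50.4% were lower in sign. For 6 members, CLDN5, ESAM, PECAM1, FLT1, TEK and ABCB1, TG1 and TG2 each lay below WT1 and WT2, where 19.4% of all genes tested did so. At an unadjusted p of 0.05 there were 2 members, ESAM and CLDN5, both lower, against 2.39% of all genes. After Benjamini-Hochberg adjustment over all genes tested, edgeR's quasi-likelihood test called 0.00% of them and no member (adjusted p of the members 0.79 to 0.85). DESeq2 called 0.293% of the genes tested and no member, and limma-voom called none. At an unadjusted p of 0.05 edgeR listed 921 genes (5.62%) in either direction. The smallest two-sided p of an exact permutation test with this design is 0.33, so none was run.

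**Figure D1:**
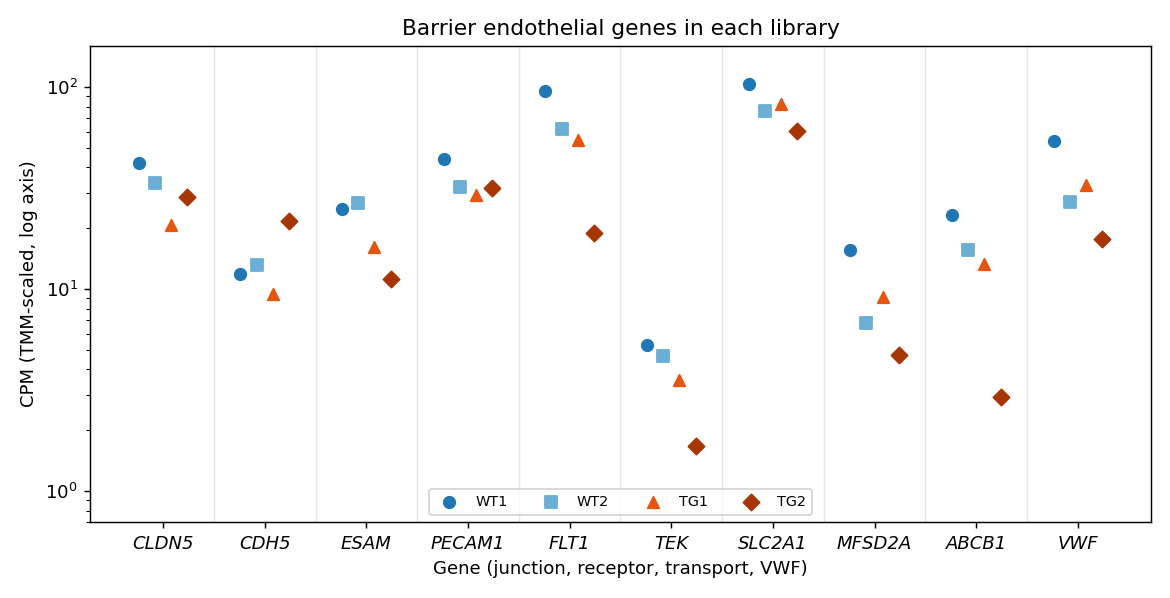
Level of each barrier gene in CPM (log axis) in the 4 libraries, 1 point per library, with genes ordered as junction, receptor and transport genes and VWF last. TG2 is the lowest point for 7 of 10 genes, and WT1 the highest for 8 of 10.

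The size of the difference depended on which library stood for each group. TG1 lay below both wild-type libraries for 7 of 10 members (34.0% of all genes tested did so), and TG2 for 9 of 10 (41.2%). TG2 was the lowest of all 4 libraries for 7 members (35.5% of all genes). Measured from the wild-type mean in log2 CPM, the median of the members was -0.44 in TG1 and -1.11 in TG2, against 0.22 and -0.22 in WT1 and WT2. WT1 was thus the high one of its pair, and it was the highest of all 4 libraries for 8 of 10 members (25.3% of all genes). Without WT1 the median log2 fold change was -0.28, and 8 of 10 members were lower in sign. Without TG1 the median was -1.20, with 9 members lower in sign. Without TG2 the median was -0.45, and all 10 members were then lower in sign. Without WT2, the library with 243 KDM5D counts, 9 members were lower in sign. Log2 fold changes were then -0.77 for CLDN5, -0.53 for PECAM1, -1.17 for MFSD2A, -0.87 for ESAM and 0.40 for CDH5.

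Among the 4 junction and adhesion genes, CLDN5, ESAM and PECAM1 had groups that did not overlap, while those of CDH5 overlapped. CLDN5 encodes claudin-5, the main claudin that seals the tight junctions of brain endothelium. It was at 42.1 and 33.6 CPM in WT1 and WT2 and at 20.7 and 28.6 CPM in TG1 and TG2. The groups did not overlap, and here TG1 was the lowest of the 4. The log2 fold change was -0.62 ± 0.23 (± SE here and below, n = 2 per group), with a 95% interval from -1.19 to -0.04 and an unadjusted p of 0.040 in edgeR (adjusted p = 0.79).

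ESAM, an adhesion molecule of endothelial tight junctions, had the smallest p among the members. Its level was 24.99 and 26.5 CPM in WT1 and WT2 and 16.1 and 11.2 CPM in TG1 and TG2. The wild-type libraries lay close together and both transgenic libraries well below them. The fitted level was 1.89-fold lower (log2 -0.92 ± 0.24 SE, n = 2 per group; 95% interval -1.51 to -0.32), with an unadjusted p of 0.010 and an adjusted p of 0.79 in edgeR and 0.34 in DESeq2. Leaving out any 1 library kept the log2 fold change between -1.20 and -0.68. Without TG1, where 7.04% of all genes and 3 of the 10 members were called, ESAM passed (adjusted p = 0.026).

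PECAM1 (CD31), which holds endothelial cells together and is also made by platelets and leukocytes, was at 43.9 and 32.2 CPM in WT1 and WT2 and at 29.2 and 31.6 CPM in TG1 and TG2. The groups were separated by less than 1 CPM, since WT2 was almost level with TG2. Its log2 fold change was -0.32 ± 0.20 (95% interval -0.84 to 0.19, adjusted p = 0.79). It was -0.08 without WT1 and -0.53 without WT2.

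CDH5 encodes VE-cadherin, the cadherin of endothelial adherens junctions. It had 154 and 180 counts in WT1 and WT2 and 129 and 394 in TG1 and TG2, or 11.9, 13.2, 9.5 and 21.8 CPM. TG1 was the lowest of the 4 and TG2 the highest, so the transgenic pair straddled the wild type. The log2 fold change of 0.32 ± 0.41 (95% interval -0.72 to 1.37, adjusted p = 0.85) turned to -0.41 without TG2. In TG2, CDH5 was the 1 member above the wild-type mean, by 0.79 log2 units, where the other 9 were below it.

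Both receptor tyrosine kinases were lower in each transgenic library than in either wild-type library. FLT1 (VEGF receptor 1) binds VEGF-A and as a soluble form holds it back from the signalling receptor KDR, and gene-level counts do not separate the forms. FLT1 was at 95.8 and 62.4 CPM in WT1 and WT2 and at 54.9 and 19.0 CPM in TG1 and TG2. TG1 was near WT2, and TG2 was far below all others. The fitted level was 2.15-fold lower (log2 -1.10 ± 0.51 SE, n = 2 per group; 95% interval -2.40 to 0.20; adjusted p = 0.79 in edgeR). Without TG2 the log2 fold change was -0.53, and without TG1 it was -2.05.

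TEK (TIE2), the angiopoietin receptor that keeps vessels quiescent, had 68 and 64 counts in WT1 and WT2 and 48 and 30 in TG1 and TG2. In CPM these were 5.3, 4.7, 3.5 and 1.7. The exact 95% Poisson interval of the 30 counts runs from 20.2 to 42.8, which covers counting error only and lies below both wild-type counts although this library was the deepest. The log2 fold change was -0.95 ± 0.44 (95% interval -2.07 to 0.17, adjusted p = 0.79), and -0.50 without TG2.

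Of the 3 transporter genes, ABCB1 had groups that did not overlap, while SLC2A1 and MFSD2A overlapped. ABCB1 encodes P-glycoprotein, the efflux pump that returns drugs and also amyloid-β to the blood side. It was at 23.2 and 15.7 CPM in WT1 and WT2, 13.4 CPM in TG1 and 2.9 CPM in TG2, where 53 reads were counted (exact 95% Poisson interval 39.7 to 69.3). The last value stood apart from the other 3, as the plot of levels by library shows. ABCB1 had the largest fitted difference of the 10 genes, 2.40-fold lower (log2 -1.26 ± 0.69 SE, n = 2 per group), and also the widest 95% interval, from -3.01 to 0.48 (adjusted p = 0.79). The log2 fold change was -0.54 without TG2, and -2.72 without TG1. ABCB1 has a close paralog, ABCB4, and how shared reads were counted was not stated.

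SLC2A1 encodes GLUT1, the glucose carrier of barrier endothelium that astrocytes also make. Its level was 103 and 76.3 CPM in WT1 and WT2 and 82.6 and 60.9 CPM in TG1 and TG2, so that TG1 lay between the wild-type libraries. The log2 fold change was -0.33 ± 0.22 (95% interval -0.89 to 0.24, adjusted p = 0.80), and -0.09 without WT1.

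MFSD2A carries lysophospholipids with docosahexaenoic acid into brain and restrains vesicle traffic across the endothelium. It was at 15.6 and 6.8 CPM in WT1 and WT2 and at 9.1 and 4.7 CPM in TG1 and TG2. The wild-type libraries differed from each other by more than the group means did. The log2 fold change of -0.70 ± 0.52 (95% interval -2.0004 to 0.60, adjusted p = 0.80) was 0.02 without WT1 and -1.17 without WT2.

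VWF encodes von Willebrand factor, the clotting protein stored by endothelium and platelets. It was at 54.1 and 27.0 CPM in WT1 and WT2 and 32.8 and 17.7 CPM in TG1 and TG2, and TG1 lay between the wild-type libraries. The log2 fold change was -0.69 ± 0.44 (95% interval -1.79 to 0.41, adjusted p = 0.79), and -0.10 without WT1. PF4, a platelet chemokine, had 14 and 0 counts in WT1 and WT2 and 1 and 63 in TG1 and TG2, and ALAS2, the haem synthesis enzyme of red cell precursors, had 187 and 14 against 7 and 110. The summed level of 8 platelet markers was 18.1 and 14.0 CPM in WT1 and WT2 and 16.8 and 15.2 CPM in TG1 and TG2, with the defining marker GP9 at 0 in all libraries. PF4, ALAS2 and GP9 were named after their values were seen, and their part in the levels of VWF and PECAM1 was not tested.

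**Figure D2:**
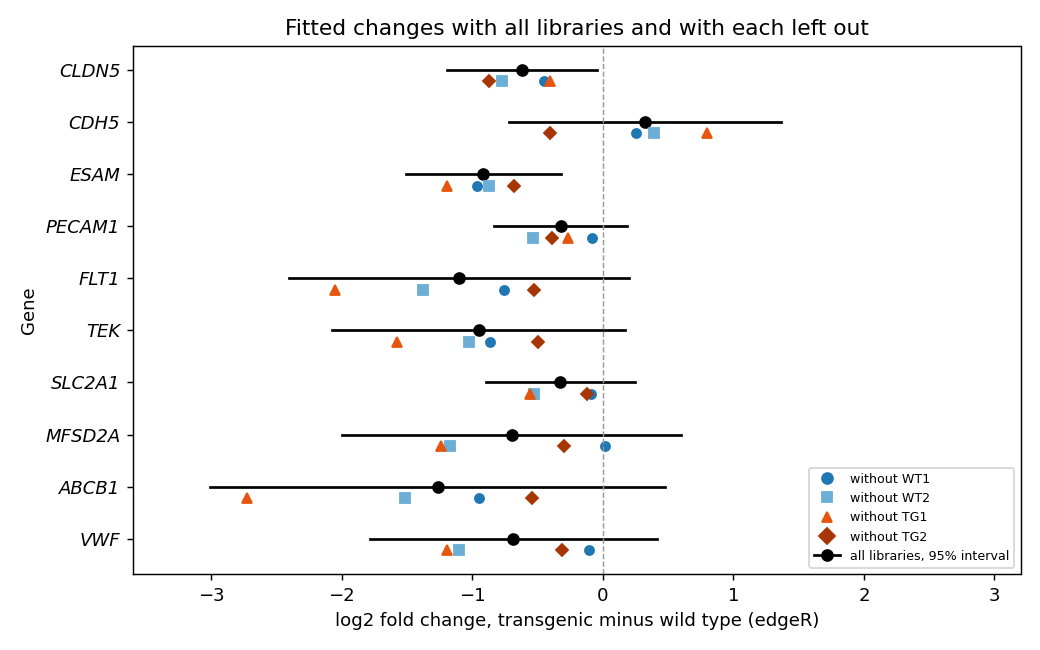
Fitted log2 fold change (transgenic minus wild type) of each barrier gene with all 4 libraries (black, with 95% interval) and with each library left out (coloured symbols). The interval excludes 0, before adjustment, for CLDN5 and ESAM, and the fit without TG1 reaches -2.72 for ABCB1.

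Other genes of endothelial identity were set beside the barrier members. Of 27 such genes, none of them a member and 3 of them also in the VEGF and angiopoietin list described next (KDR, TIE1 and PTPRB), 25 were tested and 22 were lower in sign, and the list had a median log2 fold change of -0.54. No gene passed the adjusted test, 3 were lower at an unadjusted p of 0.05, and 15 had TG1 and TG2 below WT1 and WT2 (19.4% of all genes did). The 3 with the smallest p were EMCN (endomucin, a surface sialomucin), ADGRF5 and PODXL. EMCN was at 16.8 and 19.1 CPM in WT1 and WT2 and at 10.3 and 9.2 CPM in TG1 and TG2 (log2 fold change -0.88 ± 0.21, adjusted p = 0.79). ADGRF5, an adhesion receptor, and PODXL (podocalyxin) had log2 fold changes of -0.64 ± 0.21 and -0.54 ± 0.20 (adjusted p = 0.79 for both). PLVAP, which forms the diaphragms of fenestrated and leaky vessels, had 0 counts in every library, which allows at most 0.17 to 0.23 CPM.

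Set beside these genes, the direction of the barrier members depended on the scaling. The median deviation of the identity genes was 0.11 and -0.11 in WT1 and WT2, -0.33 in TG1 and -0.77 in TG2. Subtracting it from that of the members left 0.11, -0.11, -0.11 and -0.34 in the same order. TG1 was level with WT2 on this measure. The group difference of -0.23 log2 units turned to 0.07 without WT1, so no difference between the lists is read from it. Library sizes were then scaled to the summed counts of the identity genes, in which BSG (basigin) contributed the largest part. BSG made up 438 of 900 CPM in WT1, 379 of 808 in WT2, 365 of 731 in TG1 and 358 of 599 in TG2. With this scaling, which thus rests largely on 1 gene, the log2 fold change was 0.06 for PECAM1 and 0.04 for SLC2A1. It stayed negative for the other 7 members that were lower. Scaled instead to the geometric mean of the identity genes, a choice made after seeing the data, 5 members turned. CLDN5 was at 0.25, MFSD2A at 0.04, PECAM1 at 0.51, SLC2A1 at 0.44 and VWF at 0.05. ESAM, FLT1, TEK and ABCB1 stayed negative. This mean gives each gene equal weight, also ICAM2 with 1 count and CAVIN2 with 5 counts in TG2.

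Within TG2 the endothelial genes spread widely. Deviations from the wild-type mean ran from -2.66 for ABCB1 to 0.79 for CDH5 over the barrier members, and from -4.73 for CAVIN2, a caveolar coat gene, to 1.09 for ERG, an endothelial transcription factor, over the identity genes. In that library 6 of 10 members and 10 of 25 identity genes lay at least 1 log2 unit below the wild-type mean, against 8.31% of all genes tested. In TG1 the members kept to a narrow band, from -0.86 for CLDN5 to -0.10 for SLC2A1, and none of them was above the wild-type mean.

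**Figure D3:**
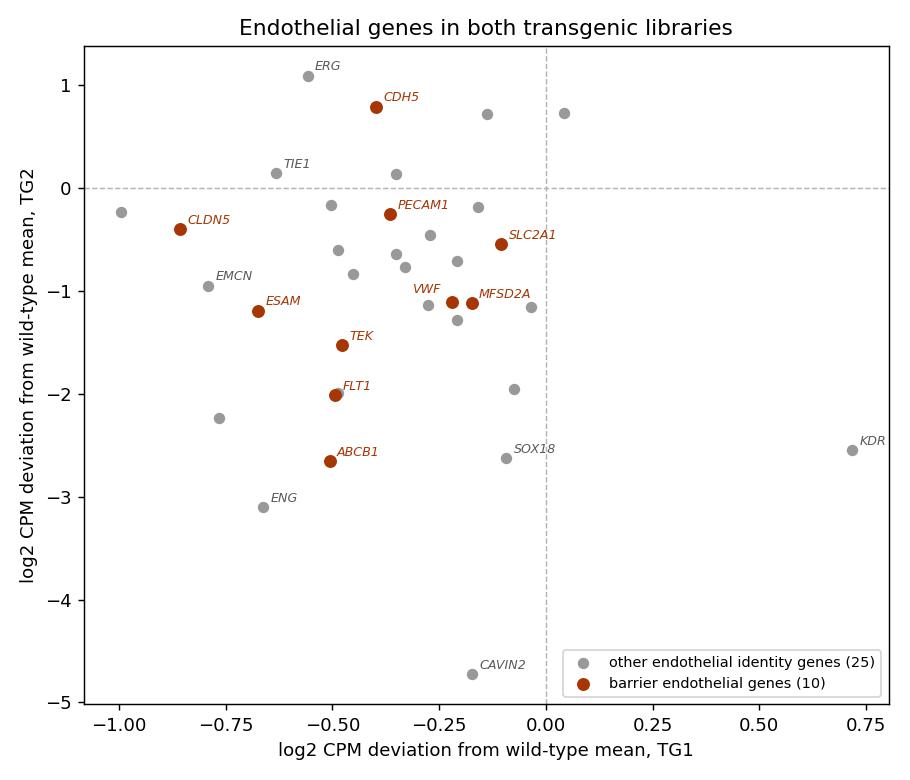
Deviation from the wild-type mean in log2 CPM in TG1 (horizontal) and TG2 (vertical), 1 point per gene, for the 10 barrier genes (brown) and 25 other endothelial identity genes (grey). All barrier genes lie left of 0, within -0.86 to -0.10, but run from -2.66 to 0.79 on the vertical axis.

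The VEGF and angiopoietin genes around FLT1 and TEK did not share one direction. Of 14 genes 12 were tested, 7 lower and 5 higher in sign, and none passed the adjusted test. KDR, the main signalling VEGF receptor, was at 11.6 and 27.9 CPM in WT1 and WT2 and at 29.7 and 3.0 CPM in TG1 and TG2. The transgenic pair lay outside the wild-type range on both sides, and the log2 fold change was -0.28 ± 1.01 (adjusted p = 0.95). The ligand VEGFA was at 65.8 and 47.8 CPM in WT1 and WT2 and 61.4 and 31.0 CPM in TG1 and TG2 (adjusted p = 0.85), and VEGFB at 41.9 and 38.03 against 36.0 and 31.2 CPM (adjusted p = 0.79).

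ANGPT2, the angiopoietin that endothelium releases on activation and that opposes TEK signalling, was at 5.0 and 4.4 CPM in WT1 and WT2, 7.5 CPM in TG1 and 51.0 CPM in TG2. Both transgenic libraries were above the wild type, and TG2, with 921 counts, was far above the other 3. The fitted level was 6.28-fold higher (log2 2.65 ± 0.88 SE with 2 libraries per group, adjusted p = 0.79 in edgeR). The log2 fold change was 0.68 without TG2 and 3.45 without TG1. ANGPT1, the ligand that activates TEK, had 49 and 25 counts in WT1 and WT2 and 28 and 5 in TG1 and TG2 (adjusted p = 0.80). The TEK partner TIE1 was at 8.7 and 8.3 CPM against 5.4 and 9.5 CPM (adjusted p = 0.89), and the phosphatase gene PTPRB, which acts on TEK, at 31.1 and 28.3 against 25.6 and 12.2 CPM (adjusted p = 0.79).

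Junction partners that many cell types make had no common direction. Of 12 genes, 5 were lower and 7 higher in sign, and the list had a median log2 fold change of 0.02, which was -0.02 with library totals without scaling. OCLN (occludin) was at 11.5 and 10.97 CPM in WT1 and WT2 and 12.3 and 3.1 CPM in TG1 and TG2 (adjusted p = 0.84), and the scaffold gene TJP1 (ZO-1) at 104 and 107 against 111 and 62.1 CPM (adjusted p = 0.82). For both genes only TG2 was low. JAM2, a junctional adhesion molecule, was at 68.9 and 91.8 against 69.2 and 30.2 CPM, and AFDN (afadin) at 186 and 175 against 208 and 211 CPM (adjusted p = 0.79 for both).

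The list of further transport genes also holds the receptor genes TFRC and LRP1. Among its 17 genes tested, 10 were lower and 7 higher in sign. The median log2 fold change was -0.13, and none passed the adjusted test. ABCG2, the other main efflux pump beside ABCB1, was at 21.5 and 18.6 CPM in WT1 and WT2 and 19.8 CPM in TG1, but at 1.6 CPM in TG2. Like ABCB1 it was low in that library. Its log2 fold change of -0.92 ± 0.995 (adjusted p = 0.84) was -0.02 without TG2 and -3.64 without TG1. The organic anion carrier SLCO1A2 was lower in both transgenic libraries, with 162 and 135 counts in WT1 and WT2 against 67 and 6 (log2 fold change -2.12 ± 1.02, adjusted p = 0.79). Its log2 fold change was -1.19 without TG2 and -5.04 without TG1.

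SLC38A5 is a glutamine carrier of barrier endothelium. It was at 12.5 and 10.8 CPM in WT1 and WT2 and 7.7 and 4.9 CPM in TG1 and TG2. The log2 fold change was -0.89 ± 0.31 (adjusted p = 0.79), and -1.24 without TG1. SLC7A5, the large neutral amino acid carrier LAT1, was at 147 and 92.2 CPM in WT1 and WT2 and 102 and 107 CPM in TG1 and TG2, within the wild-type range (adjusted p = 0.85).

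The 18 genes of the Wnt pathway that maintains the barrier were lower in sign for 13 and higher for 5, with a median log2 fold change of -0.22 that was 0.01 without TG2. None passed the adjusted test. The ligand gene WNT7B had 23 and 20 counts in WT1 and WT2 and 81 and 59 in TG1 and TG2 (log2 fold change 1.498 ± 0.44, adjusted p = 0.79). The pathway target AXIN2 was at 22.3 and 21.9 against 18.7 and 15.8 CPM, and the endothelial transcription factor gene FOXQ1 at 5.4 and 9.0 against 5.7 and 2.4 CPM (adjusted p = 0.79 for both). Groups did not overlap for 2 lower genes and 1 higher gene of the 18, against 3173 lower and 3198 higher of all 16385 genes tested. AXIN2 was among the lower and WNT7B was the higher one. Both were named for their small p within the list, and neither passed the adjusted test.

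Markers of the cells that surround the vessel differed among themselves. Over 13 pericyte and smooth muscle markers tested the median deviation was -0.04 in TG1 and -1.02 in TG2, with 11 of 13 lower in sign, and all 16 listed genes summed to 342, 349, 315 and 303 CPM in WT1, WT2, TG1 and TG2. The pericyte receptor gene PDGFRB was at 11.8 and 13.2 CPM in WT1 and WT2 and 12.8 and 11.4 CPM in TG1 and TG2 (adjusted p = 0.95). RGS5, a pericyte gene with more counts than any other marker of this list and named after its values were seen, was at 181 and 174 CPM in WT1 and WT2 and 180 and 194 CPM in TG1 and TG2. VTN (vitronectin), a pericyte product in brain, was lower in both transgenic libraries, at 49.5 and 82.7 against 39.8 and 37.2 CPM (adjusted p = 0.79), and ABCC9 and ANPEP had log2 fold changes of -0.61 ± 0.34 and -1.08 ± 0.64 (adjusted p = 0.79 for both). The 10 astrocyte endfoot genes, 4 of which also count among the astrocyte markers, summed to 7432 and 6454 CPM in WT1 and WT2, 6799 CPM in TG1 and 1833 CPM in TG2. AQP4, the endfoot water channel, was at 251 and 248 CPM in WT1 and WT2, 256 CPM in TG1 and 126 CPM in TG2 (adjusted p = 0.81). Without TG1, TG2 stood alone for its group. Log2 fold changes were then -0.98 for AQP4, -2.30 for ANPEP, -1.41 for JAM2, -2.72 for KDR and -1.86 for OCLN. PTPRB and TJP1 were lower as well. Such falls were not general among the genes named, since PDGFRB was at -0.14, CDH5 at 0.80 and ANGPT2 at 3.45 in the same fit.

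**Figure D4:**
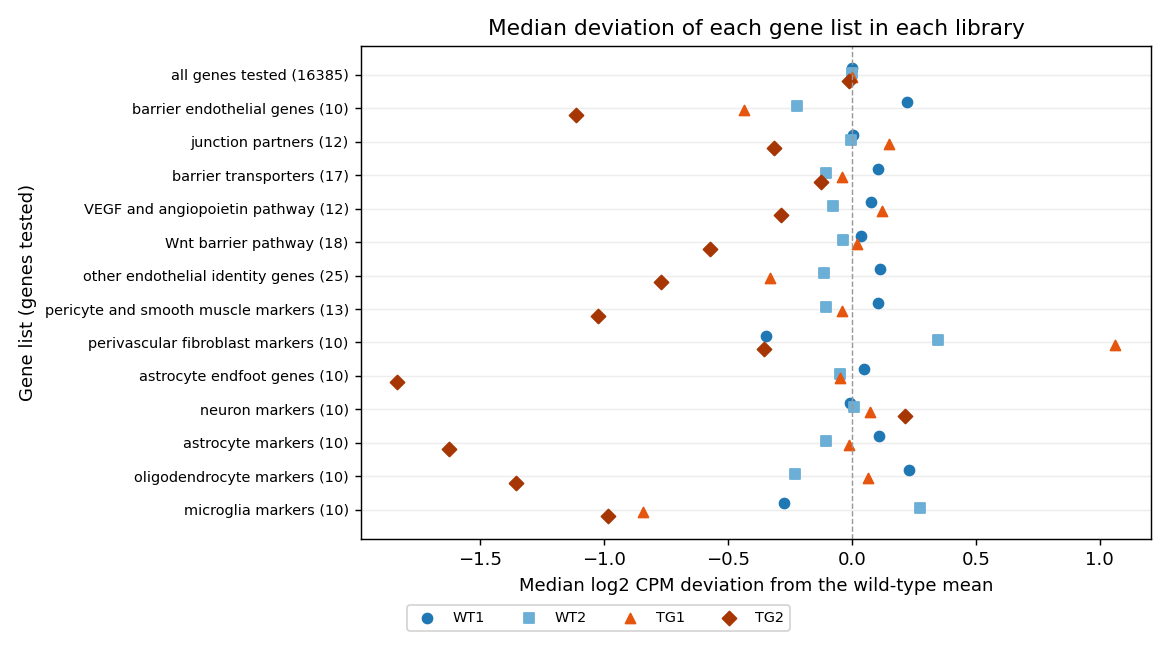
Median log2 CPM deviation from the wild-type mean for each gene list (rows, with the number of genes tested) in each library. For the barrier genes both transgenic libraries lie left of both wild-type libraries (-0.44 and -1.11). The same order holds for other endothelial identity genes (-0.33 and -0.77) and microglia markers (-0.84 and -0.98). For astrocyte endfoot genes TG1 is level with WT2 at -0.05, and TG2 is at -1.84.

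Marker levels of the other cortical cell types also differed between libraries. Summed levels of 10 oligodendrocyte markers were 3333 and 2639 CPM in WT1 and WT2 and 3300 and 1202 CPM in TG1 and TG2, and those of 10 astrocyte markers 8324 and 6973 against 7489 and 2617 CPM. SLC1A2, also an endfoot gene, made up the largest part of the astrocyte sum, at 4921 and 4173 against 4337 and 999 CPM. GFAP, at 695 and 517 against 757 and 635 CPM, was the 1 astrocyte marker above the wild-type mean in TG2. The 10 neuron markers summed to 10068 and 10384 CPM in WT1 and WT2 and to 9718 and 11562 CPM in TG1 and TG2. The sum of 10 microglia markers was low in both transgenic libraries, at 202 and 234 against 130 and 103 CPM, with 10 of 10 lower in sign. For 5 of the 10, TG1 and TG2 each lay below WT1 and WT2 (19.4% of all genes did so). Above the wild-type mean were 1 marker in TG1 and 2 in TG2. Of these 4 lists, no marker was at 0 in all libraries. The 8 red cell and leukocyte markers in the table, of 12 listed, summed to 25.2 and 9.1 CPM in WT1 and WT2, 5.9 CPM in TG1 and 270 CPM in TG2, where S100A9, a neutrophil and monocyte gene, had 3705 counts against 3 to 10 elsewhere. The part of these differences in the levels of the barrier genes was not tested.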

How the data were processed

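The table the authors deposited holds raw counts of reads by gene symbol for WT1, WT2, TG1 and TG2. Per the submitters' processing notes the tools were featureCounts 1.5.2, kallisto 0.46.2 and STAR 2.5.3a, with no role stated. Genome build, annotation and strand were not given in the sources used here. Overlapping genes may share reads. In another assembly (calJac240_pri) FLT1 overlaps 3 annotated genes and PECAM1, ABCB1 and TEK 1 each. Per the labels, RNA was extracted with a column kit and libraries made with KAPA Hyper reagents.

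Counts were analysed in R 4.3.3. Genes kept by filterByExpr were scaled by TMM and tested with edgeR 4.0.16 (quasi-likelihood, genotype as the only term, 2 residual degrees of freedom, Benjamini-Hochberg over 16385 genes, threshold 0.05). Standard errors were derived from the fold change and the F statistic, and 95% intervals use the moderated degrees of freedom. Deviations are log2 CPM (prior count 2) minus the wild-type mean. Library pairs differed by 8.0 to 53.4 chi-square per degree of freedom, so none repeats another. The steps were tested on simulated data.

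The members and lists were chosen with earlier results of these data known, so lists have counts and medians but no p. Genes named were the members, a fixed set, and the 3 with the smallest p (mean count at least 20) of 6 lists. Some genes that this rule picks are not reported here. Others are named as extremes or after their values were seen. Alternatives were DESeq2 1.42.0, limma-voom (limma 3.58.1), other scalings, other filters, a replicate block and leaving out each library on the same genes. With 1 library left in a group, it was assumed to vary like the other group. Promoter and protein sequences were not used here.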

Additional observations from a re-analysis of the deposited data

How the results depend on the processing

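The count of genes called was 0 in edgeR, 48 in DESeq2, 5 with no filter on low counts (more genes tested) and 0 to 1154 with 1 library left out, the highest without TG1. limma-voom, RLE scaling, library totals and a mean count of at least 50 also called 0. The median log2 fold change of the barrier genes ranged from -1.20 to -0.28 with 1 library left out, and their difference from other endothelial identity genes from -0.35 to 0.068. Fits with 1 library left in a group take their spread from the other group only. The lowest barrier median came without TG1, where TG2 stands alone for its group, and the cause was not tested.

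With the replicate number as a block edgeR called 0 genes and the barrier median was -0.66. The numbers do not pair animals in the labels, and same-numbered libraries deviated with a correlation of -0.13 across genes. With the numbers crossed, chosen after seeing the data, 0 genes were called.

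Signs also turned with 1 library left out, where log2 fold changes ranged from -0.41 to 0.80 for CDH5, -1.24 to 0.016 for MFSD2A, -0.98 to 0.032 for AQP4, -2.72 to 0.58 for KDR, -1.86 to 0.13 for OCLN, -0.14 to 0.027 for PDGFRB, -0.49 to 0.18 for SLC7A5, -0.65 to 0.16 for TIE1, -0.76 to 0.075 for TJP1 and -0.88 to 0.11 for VEGFA. Scaled to the summed counts of other endothelial identity genes, PECAM1 was at 0.064 and SLC2A1 at 0.036. Scaled to their geometric mean, chosen after seeing the data, CLDN5 was at 0.25, MFSD2A at 0.038, PECAM1 at 0.51, SLC2A1 at 0.44 and VWF at 0.046.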

Other observations

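Ratios of counts within a library do not depend on its scaling. All pairs given here were chosen after the values were seen. CDH5 reads per ABCB1 read were 0.51 and 0.84 in WT1 and WT2, 0.71 in TG1 and 7.43 in TG2. CDH5 reads per FLT1 read were 0.12, 0.21, 0.17 and 1.15 in the same order. For both ratios TG1 fell between WT1 and WT2, and TG2 was above all others. ABCB1 reads per SLC2A1 read were 0.22 and 0.21 in wild type, 0.16 in TG1 and 0.048 in TG2. CLDN5 reads per ESAM read were 1.68 and 1.27 in WT1 and WT2, 1.29 in TG1 and 2.54 in TG2. These are ratios of read counts, not of transcript numbers, and they have no test.

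The 10 perivascular fibroblast markers, which include collagen and matrix genes as well as a receptor, a transporter and an enzyme gene, lay above the wild-type mean in TG1, where the barrier genes lay below it. All 10 were higher in sign in the fit, and their median log2 fold change was 0.37, or -0.46 without TG1. Their summed level was 119 and 232 CPM in WT1 and WT2, 314 CPM in TG1 and 104 CPM in TG2. On the list's median deviation WT1 and WT2 were at -0.35 and 0.35, TG1 at 1.06 and TG2 at -0.35. TG1 stood above the other 3 libraries, and none of the 10 genes passed the adjusted test.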
